A study of Mus musculus with 18 samples.

Results

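The 10 genes Cdx1, Cdx2, Cdx4, Nkx1-2, Tbx6, Wnt3a, Wnt8a, Sp5, Fgf17 and Lef1, which mark tailbud progenitors or respond to Wnt signals, were followed through an allelic series of Tbx1 in whole mouse embryos at embryonic day 9.5. Every probe set annotated with one of these symbols alone was taken, which gave 15 of the 45037 probe sets and 10 of the 18193 genes of the table. The genes were chosen partly by their signal, since several of them were high on the arrays labelled Neo2/Neo2, so every contrast with that genotype is given as a description, with no test. RNA of single embryos was hybridised to 18 Affymetrix mouse genome arrays, 2 embryos for each of 9 genotypes, and signals are log2 RMA values. The mutant genotypes were -/-, Neo/Neo, Neo2/-, Neo2/Neo and Neo2/Neo2, which lack a wild-type Tbx1 allele, and +/-, Neo/+ and Neo2/+, which keep 1, and the last genotype was WT, with 2. The minus sign stands for a null allele, and Neo and Neo2 are germline alleles that keep part of the activity of Tbx1, a T-box factor needed to build the pharynx and its arches. All embryos shared a mixed 129SvEv and C57Bl/6 background, were untreated and were measured whole, and the labels give the embryonic day but no somite count. In whole embryos, fewer cells of a type and less RNA per cell cannot be told apart.

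At this stage the mouse embryo lengthens from the tailbud, where progenitors that feed both the spinal cord and the presomitic mesoderm are kept by Wnt and FGF ligands. Wnt3a and Wnt8a activate beta-catenin, which works with DNA-binding partners of the TCF and LEF family on target genes such as Sp5, and the Cdx factors keep the posterior growth zone active and switch on posterior Hox genes. Cells that leave this zone for the mesoderm turn on Tbx6, while those that leave it for the neural tube lose Nkx1-2.

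Of 7 tailbud progenitor markers, 6 were measured (Cdx2, Nkx1-2, Wnt3a, Fgf8, Sox2 and Cyp26a1), and T is not analysed here. Their summed linear signal was 2266 to 2400 on the arrays labelled Neo2/Neo2, 1808 to 2310 in -/- and 1787 to 2313 in WT, so the sums overlapped. Most of each sum was Sox2, which averaged 10.72 over all arrays, while the other markers averaged at most 7.46. The overlap therefore says little about the other markers. Sox2, which the whole neural tube also expresses, was at 10.63 ± 0.07 on the arrays labelled Neo2/Neo2 and 10.65 ± 0.27 in WT (SD, n = 2 each). On the log2 scale 5 of the 6 markers were higher on the arrays labelled Neo2/Neo2 than in WT, with a median difference of 0.46. Over all genes 59% were higher, with a median of 0.04. Cdx2, Nkx1-2 and Wnt3a belong to the 10 genes chosen partly on this contrast, so the choice favoured this count and median. The markers outside the 10 genes differed by 0.42 (Fgf8), 0.33 (Cyp26a1) and -0.01 (Sox2). Tbx1 itself was at 4.98 and 5.16 in -/-, against 6.54 and 6.63 in WT, a difference of -1.52 ± 0.14 (limma SE, adjusted p = 0.00303, and 0.0524 without -/- replicate 1). In Neo/Neo it was at 5.04 and 5.20, so the array signal did not set Neo/Neo apart from -/-. It was at 5.65 and 5.67 in Neo2/Neo and at 5.61 and 5.81 in Neo2/-, which pair Neo2 with a mutant allele. On the arrays labelled Neo2/Neo2, a label that also pairs Neo2 with a mutant allele, Tbx1 was at 6.62 and 6.62, within the WT range. The Tbx1 signal of these 2 arrays therefore goes against their label, which may be wrong, and every value given for them is that of arrays so labelled, not of an established genotype. The array medians lay between 5.73 and 5.94, 0 pairs of arrays were identical, and the first embryos of +/- and of -/- correlated least with the rest. By Xist and Y-linked genes the embryos labelled Neo2/Neo2 and the Neo/Neo embryos were all male, the -/- and WT embryos were all female, and in the other 5 genotypes 1 embryo was of each sex, so sex and genotype cannot be told apart between Neo2/Neo2 or Neo/Neo and WT.

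Promoter windows of 300 bases, from 250 before to 50 after a start site, were found for 7 of the 10 genes in RefSeq (build GRCm38.p6), in 10 windows because Lef1 has 4. They were searched on both strands for TCF and LEF words (CTTTGAA and also CTTTGAT and also CTTTGTA and also CTTTGTT), CDX words (TTTATGA and also TTTATTA and also TTTATGG and also TTTATTG) and T-box words (GGTGTGA and also GGTGTTA). A TCF or LEF word occurs in 16.9% of the 32851 windows of all genes, a CDX word in 14.4% and a T-box word in 5.52%. In these 7 genes only Sp5, with 2, and the fourth Lef1 window, with 1, held a TCF or LEF word, and 0 windows held a CDX or T-box word. The core CTTTG, with which every TCF or LEF word starts, was added to the search after the values were seen and occurs in 53.9% of all windows. Below, Sp5 and Lef1 are shown because they hold such words, and Cdx4, which had one of the largest differences, because it held 1 core and no full word. Capitals mark each core on either strand and the whole word where the full 7 letters matched.
Sp5, chr2:70474673-70474972, plus strand: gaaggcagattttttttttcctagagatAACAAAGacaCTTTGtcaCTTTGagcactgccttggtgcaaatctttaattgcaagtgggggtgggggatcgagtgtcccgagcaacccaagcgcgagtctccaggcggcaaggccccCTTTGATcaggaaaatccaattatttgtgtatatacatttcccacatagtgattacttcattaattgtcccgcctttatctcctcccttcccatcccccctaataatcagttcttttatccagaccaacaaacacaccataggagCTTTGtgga
Lef1, chr3:131156044-131156343, plus strand: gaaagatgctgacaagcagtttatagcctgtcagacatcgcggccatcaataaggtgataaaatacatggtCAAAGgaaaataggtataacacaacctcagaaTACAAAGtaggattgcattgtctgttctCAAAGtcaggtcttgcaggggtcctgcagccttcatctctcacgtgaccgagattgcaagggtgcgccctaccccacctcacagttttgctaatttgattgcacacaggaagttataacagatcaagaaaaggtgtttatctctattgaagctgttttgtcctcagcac
Cdx4, chrX:103321148-103321447, plus strand: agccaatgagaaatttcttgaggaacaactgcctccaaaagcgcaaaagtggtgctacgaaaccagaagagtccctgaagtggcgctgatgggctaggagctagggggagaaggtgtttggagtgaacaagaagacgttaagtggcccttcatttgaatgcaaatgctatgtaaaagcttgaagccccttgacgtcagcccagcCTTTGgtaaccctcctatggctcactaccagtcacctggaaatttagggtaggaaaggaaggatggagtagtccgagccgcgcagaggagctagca
The Sp5 words are CTTTGTT on the minus strand, at position -222 from the start site, and CTTTGAT on the plus strand, at -104. A match is a description of the letters and does not show binding.

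**Figure D1:**
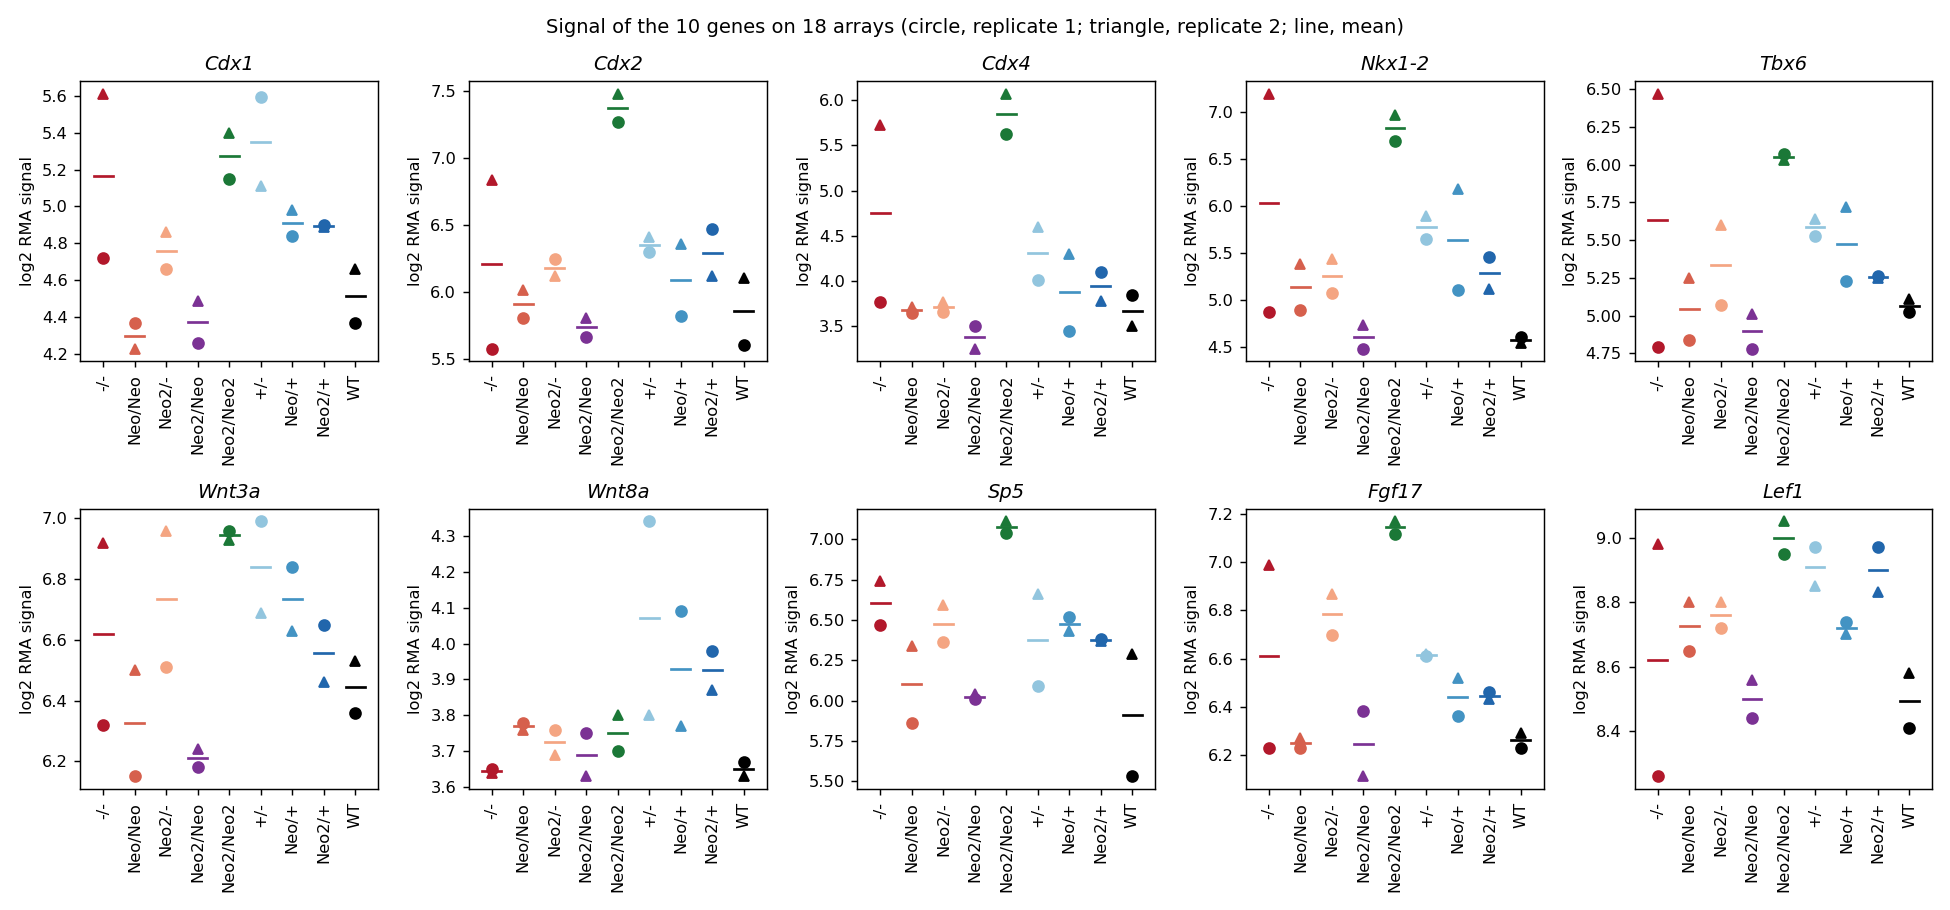
Signal of the 10 genes (brightest probe set of each, log2 RMA) in 9 genotypes, with replicate 1 as a circle, replicate 2 as a triangle and the mean as a line. The arrays labelled Neo2/Neo2 are high for 9 of the genes, -/- replicate 2 lies near or above them for most, and Wnt8a follows neither.

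The Cdx genes encode caudal homeodomain factors that specify the posterior body. Cdx4 was at 5.62 and 6.07 on the arrays labelled Neo2/Neo2, against 3.84 and 3.50 in WT, a difference of 2.17 or 4.51-fold. It was at 3.77 and 5.73 in -/-, 3.65 and 3.71 in Neo/Neo, 3.66 and 3.77 in Neo2/-, 3.50 and 3.25 in Neo2/Neo, 4.01 and 4.60 in +/-, 3.45 and 4.30 in Neo/+, and 4.10 and 3.78 in Neo2/+. Thus 3 embryos stood above the rest, both labelled Neo2/Neo2 and the second -/- embryo, and the other 15 arrays did not pass 4.60.

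Cdx2, needed also for the trophoblast, was at 7.27 and 7.48 on the arrays labelled Neo2/Neo2, against 5.61 and 6.11 in WT, which is 1.52 higher or 2.87-fold. The values were 5.58 and 6.84 in -/-, 5.81 and 6.02 in Neo/Neo, 6.25 and 6.12 in Neo2/-, 5.67 and 5.81 in Neo2/Neo, 6.30 and 6.41 in +/-, 5.82 and 6.36 in Neo/+, and 6.47 and 6.12 in Neo2/+. The highest 3 arrays were the same as for Cdx4, and the lowest was the other -/- embryo. The dimmer Cdx2 probe set averaged 5.55 ± 0.04 on the arrays labelled Neo2/Neo2 and 4.93 ± 0.10 in WT (SD, n = 2 each), a difference of 0.62, and was highest, at 5.95, in -/- replicate 2.

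Cdx1, a factor that patterns the vertebrae through Hox genes, was at 5.15 and 5.40 on the arrays labelled Neo2/Neo2, against 4.37 and 4.66 in WT, which is 0.76 higher or 1.69-fold. It was at 4.72 and 5.61 in -/-, 4.37 and 4.23 in Neo/Neo, 4.66 and 4.86 in Neo2/-, 4.26 and 4.49 in Neo2/Neo, 5.59 and 5.11 in +/-, 4.84 and 4.98 in Neo/+, and 4.90 and 4.89 in Neo2/+. Here the +/- embryos overlapped the arrays labelled Neo2/Neo2, and the single highest array was -/- replicate 2.

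Nkx1-2 is a homeobox gene of the stem zone beside the node and later of the tailbud progenitors. It was at 6.69 and 6.96 on the arrays labelled Neo2/Neo2, against 4.60 and 4.54 in WT, the largest difference among the 10 genes at 2.25 or 4.76-fold. It was at 4.87 and 7.19 in -/-, 4.89 and 5.38 in Neo/Neo, 5.07 and 5.43 in Neo2/-, 4.48 and 4.73 in Neo2/Neo, 5.65 and 5.89 in +/-, 5.10 and 6.18 in Neo/+, and 5.45 and 5.11 in Neo2/+. The WT and Neo2/Neo embryos held the lowest 4 values. Its dimmer probe sets were higher on the arrays labelled Neo2/Neo2 than in WT by 0.51 and 0.33.

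Tbx6, a T-box factor that commits cells to presomitic mesoderm, was at 6.07 and 6.03 on the arrays labelled Neo2/Neo2, against 5.02 and 5.11 in WT, which is 0.99 higher or 1.98-fold. It was at 4.79 and 6.47 in -/-, 4.84 and 5.25 in Neo/Neo, 5.07 and 5.60 in Neo2/-, 4.78 and 5.01 in Neo2/Neo, 5.53 and 5.64 in +/-, 5.23 and 5.72 in Neo/+, and 5.26 and 5.25 in Neo2/+. The 2 -/- embryos held the highest value of the series and one of the lowest.

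Among the ligands, Wnt3a, which maintains the tailbud progenitors, was at 6.96 and 6.93 on the arrays labelled Neo2/Neo2, against 6.36 and 6.53 in WT, which is 0.50 higher or 1.41-fold. It was at 6.32 and 6.92 in -/-, 6.15 and 6.50 in Neo/Neo, 6.51 and 6.96 in Neo2/-, 6.18 and 6.24 in Neo2/Neo, 6.99 and 6.69 in +/-, 6.84 and 6.63 in Neo/+, and 6.65 and 6.46 in Neo2/+. One embryo each of -/-, Neo2/- and +/- reached 6.92 or more, so the arrays labelled Neo2/Neo2 did not stand alone. Wnt8a, a ligand of the earlier primitive streak, was at 3.70 and 3.80 on the arrays labelled Neo2/Neo2, against 3.67 and 3.63 in WT, a difference of 0.10. Its highest values were in +/- at 4.34 and 3.80, Neo/+ at 4.09 and 3.77 and Neo2/+ at 3.98 and 3.87, and the 6 genotypes without such values, that labelled Neo2/Neo2 and WT among them, lay between 3.63 and 3.80, near the bottom of the scale where RMA values carry no detection call.

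Fgf17, a ligand of the Fgf8 subfamily, was at 7.12 and 7.17 on the arrays labelled Neo2/Neo2, against 6.23 and 6.29 in WT, which is 0.89 higher or 1.85-fold. It was at 6.23 and 6.99 in -/-, 6.23 and 6.27 in Neo/Neo, 6.70 and 6.87 in Neo2/-, 6.38 and 6.11 in Neo2/Neo, 6.61 and 6.62 in +/-, 6.36 and 6.52 in Neo/+, and 6.46 and 6.43 in Neo2/+. Both Neo2/- embryos came next below the arrays labelled Neo2/Neo2 and -/- replicate 2. The dimmer Fgf17 probe set ran from 3.60 in WT replicate 1 to 5.59 in -/- replicate 2, with 4.87 and 4.81 in Neo2/- and 4.78 and 4.73 in +/-, against 3.60 and 3.73 in WT.

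Sp5, a zinc-finger factor switched on by beta-catenin and the gene whose window above holds 2 TCF or LEF words, was at 7.04 and 7.11 on the arrays labelled Neo2/Neo2, against 5.53 and 6.29 in WT, which is 1.16 higher or 2.24-fold. It was at 6.47 and 6.74 in -/-, 5.86 and 6.34 in Neo/Neo, 6.36 and 6.59 in Neo2/-, 6.01 and 6.04 in Neo2/Neo, 6.09 and 6.66 in +/-, 6.52 and 6.43 in Neo/+, and 6.38 and 6.37 in Neo2/+. The WT embryos differed from each other more than those of any other genotype (SD 0.54).

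Lef1, a DNA-binding partner of beta-catenin with 1 such word in the window shown above, was at 8.95 and 9.05 on the arrays labelled Neo2/Neo2, against 8.41 and 8.58 in WT, which is 0.50 higher or 1.42-fold. It was at 8.26 and 8.98 in -/-, 8.65 and 8.80 in Neo/Neo, 8.72 and 8.80 in Neo2/-, 8.44 and 8.56 in Neo2/Neo, 8.97 and 8.85 in +/-, 8.74 and 8.70 in Neo/+, and 8.97 and 8.83 in Neo2/+. Its dimmer probe set was highest in +/- replicate 1 at 7.39 and lowest in -/- replicate 1 at 6.12.

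Over the 10 genes the median difference between the arrays labelled Neo2/Neo2 and WT was 0.94, against 0.04 over all genes. All 15 probe sets were higher on both arrays labelled Neo2/Neo2 than in both WT embryos, which held for 24.8% of all probe sets, and this contrast chose the genes. Both arrays labelled Neo2/Neo2 were above the other 16 arrays for 3 of the 15 (Cdx2, Sp5 and Fgf17), against 2.02% of all probe sets, a count that the same choice favoured. The smallest differences were those of Lef1 and Wnt3a, at 0.50 each, and Wnt8a, at 0.10. The genotype medians over the 10 genes, each as a difference from WT, were 0.94 on the arrays labelled Neo2/Neo2, 0.48 in +/-, 0.46 in -/-, 0.32 in Neo2/+, 0.28 in Neo2/- and in Neo/+, 0.04 in Neo/Neo and -0.07 in Neo2/Neo. The median deviation of the 10 genes on each array had a pooled SD of 0.23 within genotypes. The -/- pair widened it, since the median size of the replicate difference was 0.82 there and 0.10 to 0.27 in the others. Steps between neighbours from +/- down to Neo/+ were smaller than this SD, as were those between Neo/Neo, Neo2/Neo and WT. That does not show that these genotypes were alike. All these differences share the same WT arrays.

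**Figure D2:**
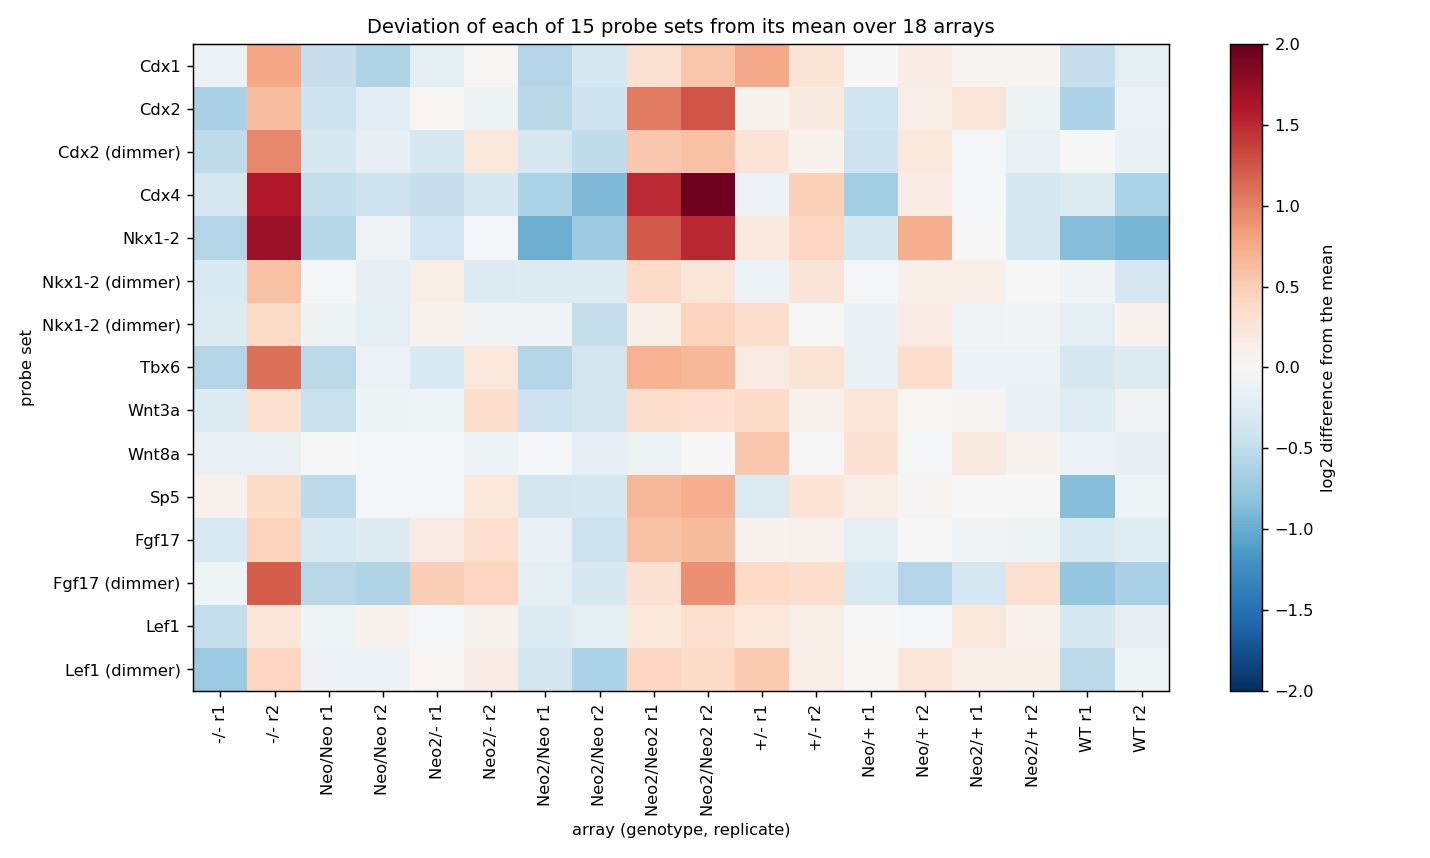
Deviation of each of the 15 probe sets from its own mean over 18 arrays (log2), with arrays in columns by genotype and replicate and probe sets in rows. Both columns labelled Neo2/Neo2 and the -/- replicate 2 column are high for nearly all rows, while -/- replicate 1 is low for most.

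By the median over the 10 genes, the -/- embryos differed from each other more than those of any other genotype. Sp5 differed more between the WT embryos (SD 0.54, against 0.19 in -/-) and Wnt8a between the +/- embryos (0.38, against 0.01). Replicate 2 exceeded replicate 1 by 2.32 for Nkx1-2 (4.99-fold), 1.96 for Cdx4, 1.68 for Tbx6, 1.25 for Cdx2, 0.89 for Cdx1, 0.76 for Fgf17, 0.72 for Lef1, 0.60 for Wnt3a and 0.27 for Sp5, with -0.01 for Wnt8a. The median size of the difference between replicates over the 10 genes was 0.82 in -/-, against 0.10 to 0.27 in the other 8 genotypes, and over all genes it was 0.20 in -/-, against 0.08 to 0.18. Replicate 2 was above replicate 1 for 14 of the 15 probe sets, against 49.2% of all probe sets, and more than 0.5 above it for 13 of the 15 probe sets, against 7.64% of all probe sets. For 7 of the 15 the highest 3 arrays were both arrays labelled Neo2/Neo2 and -/- replicate 2, against 1.22% of all probe sets. High signal on the arrays labelled Neo2/Neo2 partly chose the genes, so the choice favoured this count. Both -/- embryos were female and their Tbx1 signals were 4.98 and 5.16, so neither measure separates them as these genes do.

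No comparison whose contrast leaves out the arrays labelled Neo2/Neo2 called any of the 15 probe sets at an adjusted p under 0.05 in limma. Except in the test of 0 against 1 wild-type alleles, these arrays still entered the estimate of the spread. Beside those 0 calls, the shares of all probe sets called were 0.0311% in -/- against WT, 0.0822% in Neo/Neo, 0.00222% in Neo2/-, 0.00222% in Neo2/Neo, 0% in +/-, 0.0311% in Neo/+ and 0% in Neo2/+. The F-test over the 8 genotypes called 0.251% of all probe sets, the test of 0 against 1 wild-type alleles 0.00222%, and the test of -/- against the other 3 genotypes (Neo/Neo, Neo2/- and Neo2/Neo) 1.98%. At an unadjusted p under 0.05 the number of the 15 was 5 in -/- (15.1% of all probe sets), 0 in Neo/Neo (7.01%), 3 in Neo2/- (6.28%), 0 in Neo2/Neo (6.72%), 6 in +/- (11.7%), 1 in Neo/+ (7.36%) and 1 in Neo2/+ (6.51%). It was 2 in the F-test (12.1%), 3 for 0 against 1 wild-type alleles (5.86%) and 4 for -/- against the other 3 genotypes (19.6%). With 2 embryos a genotype, a p that misses the threshold does not show that levels were alike.

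**Figure D3:**
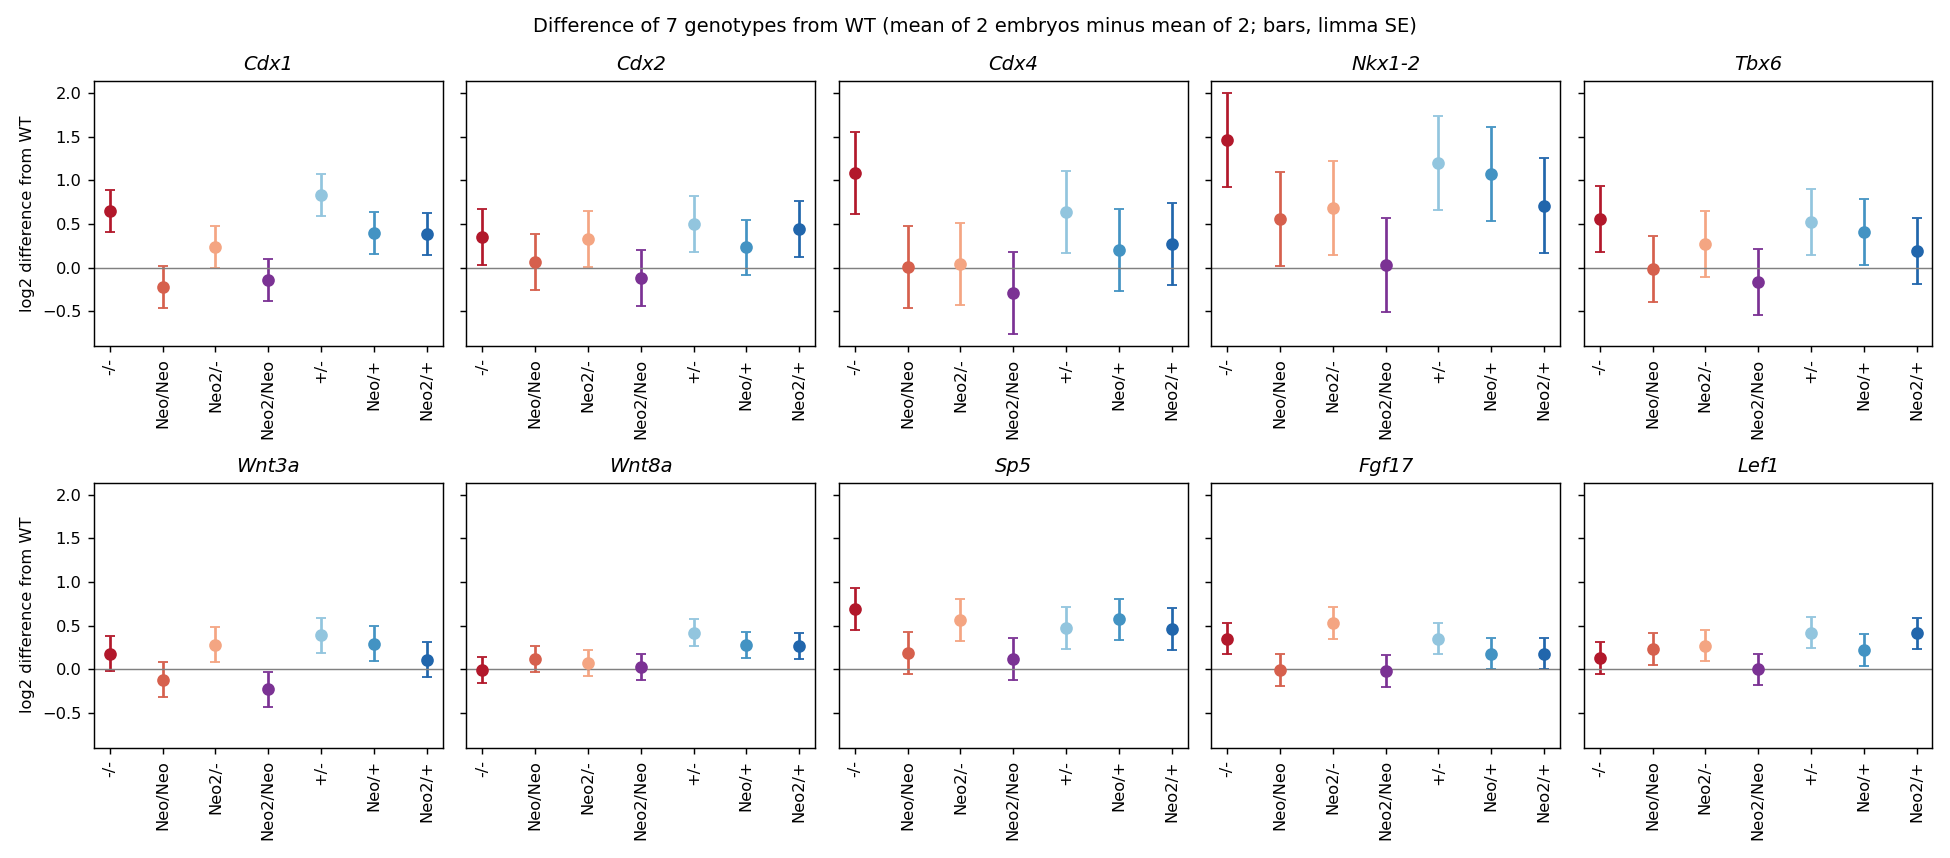
Difference of 7 mutant genotypes from WT for the brightest probe set of each of the 10 genes (log2; points, mean of 2 embryos minus mean of 2; bars, limma SE). Most points lie above 0 outside Neo/Neo and Neo2/Neo, the widest bars belong to Nkx1-2 and Cdx4, and 0 differences passed the adjusted threshold.

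The -/- differences from WT were 1.46 ± 0.54 for Nkx1-2 (SE, limma adjusted p = 0.234), 1.08 ± 0.47 for Cdx4 (0.302), 0.69 ± 0.24 for Sp5 (0.210) and 0.65 ± 0.24 for Cdx1 (0.233), and the dimmer Fgf17 probe set gave 1.28 ± 0.33 (0.141). They depended on the embryos unequally. Without replicate 2, Nkx1-2 differed from WT by 0.30, Cdx4 by 0.10, Cdx1 by 0.20 and Sp5 by 0.56, whereas without replicate 1 they differed by 2.62, 2.06, 1.09 and 0.83. Without both of the least correlated arrays, -/- replicate 1 and +/- replicate 1, 4 of the 15 probe sets rose in the 1 remaining -/- embryo, whose spread is taken from the other genotypes, beside 65 of all 45037 probe sets. These were Nkx1-2 (2.62, limma adjusted p = 0.0428), Cdx4 (2.06, 0.0442), Cdx1 (1.09, 0.0442) and the dimmer Fgf17 probe set (1.93, 0.0428).

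Against the mean of Neo/Neo, Neo2/- and Neo2/Neo, -/- differed by 0.69 ± 0.20 for Cdx1 (SE, limma adjusted p = 0.0809) and 1.16 ± 0.38 for Cdx4 (0.117). Without -/- replicate 1, 6 probe sets (218 of all probe sets) were called, each higher, of Cdx1, Cdx2, Cdx4, Nkx1-2, Tbx6 and Fgf17. Without -/- replicate 2, 0 of these 6 were called. The difference turned sign for Nkx1-2 (2.19 without replicate 1 and -0.13 without replicate 2), Tbx6 (1.37 and -0.31) and the dimmer Cdx2 probe set (1.20 and -0.27). It stayed above 0 for Cdx4 (2.14 and 0.18), Cdx1 (1.13 and 0.24) and the dimmer Fgf17 probe set (1.33 and 0.03). Both Lef1 probe sets were called lower without replicate 2 (-0.40 and -0.57, limma adjusted p = 0.0303 and 0.0488), but these are 13.3% of the 15, beside 14.3% of all probe sets.

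In +/-, which keeps 1 wild-type allele, Cdx1 differed from WT by 0.83 ± 0.24 (SE, limma adjusted p = 0.390), Nkx1-2 by 1.20 ± 0.54 (0.424) and Wnt8a by 0.42 ± 0.15 (0.409). Without +/- replicate 2, 2 of the 15 (5066 of all probe sets) were called, Wnt8a (limma adjusted p = 0.00402) and Cdx1 (0.0232), both resting on replicate 1, one of the least correlated arrays. Both +/- embryos were above both WT embryos for 12 of the 15 probe sets, against 21.6% of all probe sets, and the counts were 11 in Neo/+ (23.1%), 11 in Neo2/+ (19.3%), 9 in Neo2/- (17.7%), 4 in -/- (20.5%), 4 in Neo/Neo (21%) and 1 in Neo2/Neo (20.1%). Between 0 and 1 wild-type alleles without Neo2/Neo2, Wnt8a differed by -0.27 ± 0.08 (SE, limma adjusted p = 0.786) and Cdx1 by -0.40 (0.786), with the lower level in embryos without a wild-type allele. In the F-test the smallest adjusted p, 0.252 in limma, belonged to Cdx1, and over the alternatives run it lay between 0.0301 and 0.507.

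Across the 18 arrays the 10 genes moved together, with a median Pearson correlation of 0.75 over their 45 pairs, and 0.64 over the 14 arrays other than Neo2/Neo2 and -/-. The closest pairs were Nkx1-2 with Tbx6 (0.95) and Cdx4 with Nkx1-2 (0.93). Wnt8a stood outside, with a median correlation of 0.05 with the other 9 genes. The arrays share genotypes, sex and their place in the series, so these correlations describe the 18 arrays and carry no p.

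Markers of differentiating neurons moved against the 10 genes. All 10 neuron genes were lower on the arrays labelled Neo2/Neo2 than in WT, with a median of -1.31, where 59% of all genes were higher. All 10 were also lower in -/- replicate 2 than in -/- replicate 1, with a median of -1.07. Nefm, a neurofilament subunit, was at 8.34 ± 0.07 on the arrays labelled Neo2/Neo2 and 10.12 ± 0.06 in WT (SD, n = 2 each), and the summed linear signal of the list was 2590 to 2695 on the arrays labelled Neo2/Neo2, 2614 to 6229 in -/-, 9293 to 9510 in Neo2/Neo and 5565 to 5808 in WT. Dcx, which binds microtubules in young neurons, was at 6.25 ± 0.06 on the arrays labelled Neo2/Neo2 and 7.94 ± 0.17 in WT. The mean deviation of the 10 genes correlated with that of the neuron genes at -0.91 (Spearman -0.88, n = 18), at -0.87 without the 2 arrays farthest from the median and at -0.84 over the 14 arrays without Neo2/Neo2 and -/-. Elavl3, an RNA-binding protein of neurons, fell in -/- against the mean of Neo/Neo, Neo2/- and Neo2/Neo by 1.11 ± 0.24 on the log2 scale (SE, limma adjusted p = 0.039), where 1.98% of all probe sets were called, and the other 9 neuron genes were not called there. The Elavl3 call was lost under 15 of 27 alternatives, with limma adjusted p between 0.016 and 0.403, the highest with array weights, under which 0 of all probe sets were called. Without the arrays labelled Neo2/Neo2, which add only to the spread of that comparison, the limma adjusted p of Elavl3 was 0.057. The part of neuron content in the levels of the 10 genes was not tested.

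**Figure D4:**
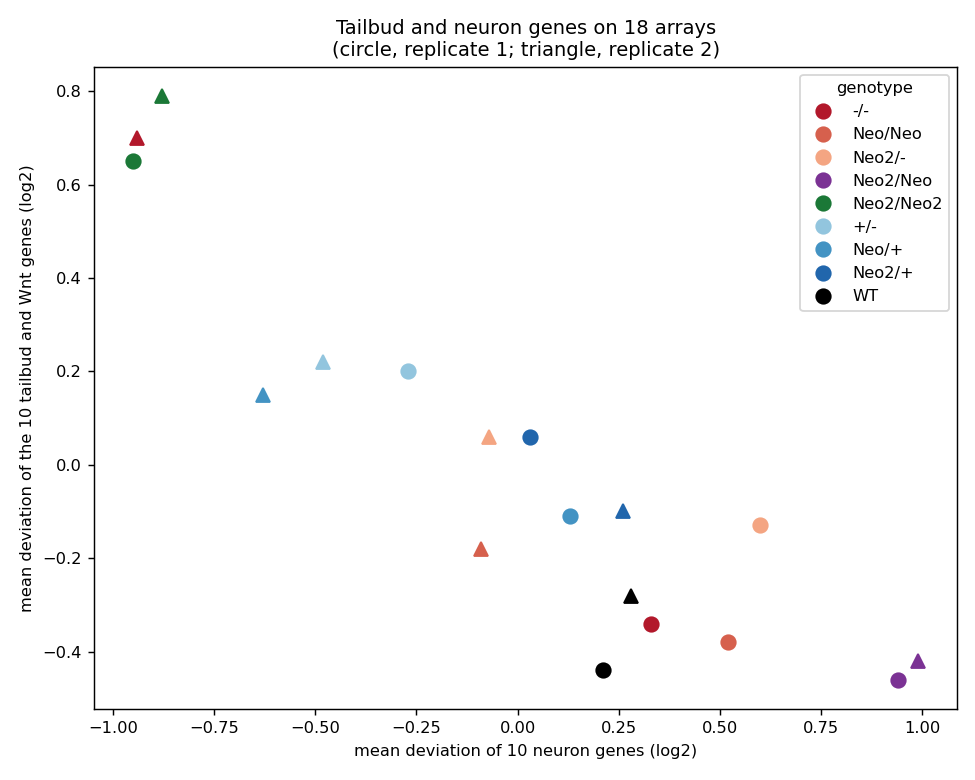
Mean deviation of the 10 tailbud and Wnt genes (vertical axis, log2) against that of 10 neuron genes (horizontal axis, log2) on 18 arrays, coloured by genotype. Both arrays labelled Neo2/Neo2 (0.65 and 0.79 on the vertical axis) and -/- replicate 2 (0.70) lie at the top left, and both Neo2/Neo embryos (-0.46 and -0.42) at the bottom right.

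Markers of other tissues were summed in the same way. Yolk sac endoderm markers summed to 539 to 973 on the arrays labelled Neo2/Neo2, 906 to 1838 in -/- and 1361 to 1889 in WT. On the arrays labelled Neo2/Neo2 7 of 8 were lower than in WT, where 59% of all genes were higher. The median difference was -0.20, and the 7 include Amn, at -0.01, and Apoa1, at -0.09. Ttr was at 6.49 and 7.78 on the arrays labelled Neo2/Neo2, on either side of 7.33 and 7.59 in WT. Most of the WT sum was Afp. Afp, the main yolk sac serum protein, had 7.99 ± 0.87 on the arrays labelled Neo2/Neo2 and 10.07 ± 0.41 in WT (SD, n = 2 each), a difference of -2.08. The 4 measured primitive erythroid markers were lower by a median of 0.33, summing to 46239 to 52718 on the arrays labelled Neo2/Neo2 and 58299 to 60717 in WT. The 5 measured markers of decidua and placenta summed to 199 to 228 on the arrays labelled Neo2/Neo2 and 283 to 337 in WT. Most of that sum was Dcn alone, at 7.39 ± 0.18 on the arrays labelled Neo2/Neo2 and 8.04 ± 0.24 in WT (SD, n = 2 each). Tpbpa and Prl3c1, which define trophoblast and decidua, were near the bottom of the scale. Limb bud markers summed to 1022 to 1049 on the arrays labelled Neo2/Neo2 and 797 to 950 in WT. The part of these tissues in the results was not tested.

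The mean of the 10 genes followed the Tbx1 signal weakly (Pearson 0.30, Spearman 0.36, n = 18, and 0.13 without the 2 arrays farthest from the median). It followed Lin28a, an RNA-binding protein of early embryonic cells that declines with development, at 0.92 (Spearman 0.95, and 0.91 without the 2 farthest arrays). Lin28a was at 11.72 and 11.73 on the arrays labelled Neo2/Neo2, with 9.51 and 11.46 in -/-, against 10.02 and 10.30 in WT, the same split of the -/- embryos as for Nkx1-2. By correlation with the mean of the 10 genes over 18 arrays, 18179 genes were ranked. The 5 most alike were Nop9 (0.96), Prdm1, Arhgap24, Hoxb1 and Gprc5a (0.95 each). High signal on the arrays labelled Neo2/Neo2 partly chose the 10 genes, so the choice favoured genes high there in this ranking. Over the 14 arrays other than Neo2/Neo2 and -/- these 5 correlations were 0.94, 0.90, 0.85, 0.90 and 0.90, and that of Lin28a was 0.92. Hoxb1, an anterior Hox gene also expressed in the early streak and tailbud, averaged 8.30 on the arrays labelled Neo2/Neo2 and 6.91 in WT, and was at 6.67 and 8.30 in -/-. The 3 most opposed were Ldhb (-0.96), a lactate dehydrogenase subunit, Lhx8 (-0.95) and Nfia (-0.95), a factor of later neural development.

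Wider lists of the same pathways were drawn up without the 10 genes, which were chosen partly on the contrast of these arrays with WT, so their medians are given beside that of all genes only. Over all genes 59% were higher on the arrays labelled Neo2/Neo2 than in WT, which is the share to set beside the count of each list. Of 16 measured tailbud and primitive streak genes, 14 were higher in this contrast, with a median of 0.34 beside 0.04 over all genes. Lin28a differed by 1.56, Fst, a secreted activin inhibitor, by 0.66, Evx1, a homeobox gene of the streak, by 0.63 and Wnt5a by 0.55, whereas Sox2 differed by -0.01. None of the 16 passed the adjusted threshold in the tests whose contrasts leave out the arrays labelled Neo2/Neo2. At an unadjusted p under 0.05 the F-test had 2, beside 12.1% of all probe sets. At that level the number of the 16 was 1 in -/- against WT (15.1% of all probe sets), 0 in Neo/Neo (7.01%), 3 in Neo2/- (6.28%), 0 in Neo2/Neo (6.72%), 4 in +/- (11.7%), 1 in Neo/+ (7.36%) and 2 in Neo2/+ (6.51%). It was 3 for 0 against 1 wild-type alleles (5.86%) and 1 for -/- against the other 3 genotypes (19.6%).

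Of 12 measured Wnt targets and feedback genes, 9 were higher on the arrays labelled Neo2/Neo2, beside 59% of all genes, with a median of 0.21. The secreted inhibitor Dkk1 (0.36), the zinc-finger factor Sp8 (0.32) and the ubiquitin ligase Rnf43 (0.27) led them. Nkd1, an intracellular inhibitor induced by Wnt, was at 8.38 ± 0.03 on the arrays labelled Neo2/Neo2 and 8.38 ± 0.11 in WT (SD, n = 2 each). The Wnt ligands, receptors and nuclear components had 13 of 18 higher, with a median of 0.13, and Wnt11 differed by 0.52, Wnt1 by 0.44 and the receptor Fzd7 by 0.36. Fzd1, another Wnt receptor, fell in -/- against the mean of Neo/Neo, Neo2/- and Neo2/Neo by 0.42 ± 0.09 on the log2 scale (SE, limma adjusted p = 0.0415), with the -/- embryos at 8.84 and 9.15. It was the only call among these pathway lists, in a comparison that called 1.98% of all probe sets, and it was lost under 20 of 27 alternatives (limma adjusted p 0.00348 to 0.358, the highest with array weights). Without -/- replicate 1 the Fzd1 difference was -0.27. Without the arrays labelled Neo2/Neo2, which add only to the spread of that comparison, the limma adjusted p of Fzd1 was 0.0554.

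Presomitic mesoderm genes had 9 of 12 higher on the arrays labelled Neo2/Neo2 than in WT, beside 59% of all genes, with a median of 0.19. Ripply2, a repressor at the boundary of forming somites, differed by 0.74, but its signal was low and its spread wide (3.62 ± 0.35 on the arrays labelled Neo2/Neo2 and 2.87 ± 0.26 in WT). In the same contrast Meox1, a homeobox gene of formed somites, differed by -0.06 and Dll3, a Notch ligand of the presomitic mesoderm, by -0.16. The FGF ligands and feedback genes had 6 of 9 higher, with a median of 0.22, with Fgf18 at 0.89, the transcription factor Etv5 at 0.64 and Fgf8 at 0.42, and with Dusp6, a phosphatase induced by FGF, at -0.12. Posterior Hox genes had 9 of 12 higher with a median of 0.04, the same as over all genes, although Hoxc10 differed by 0.73 and Hoxd11 by 0.41.

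**Figure D5:**
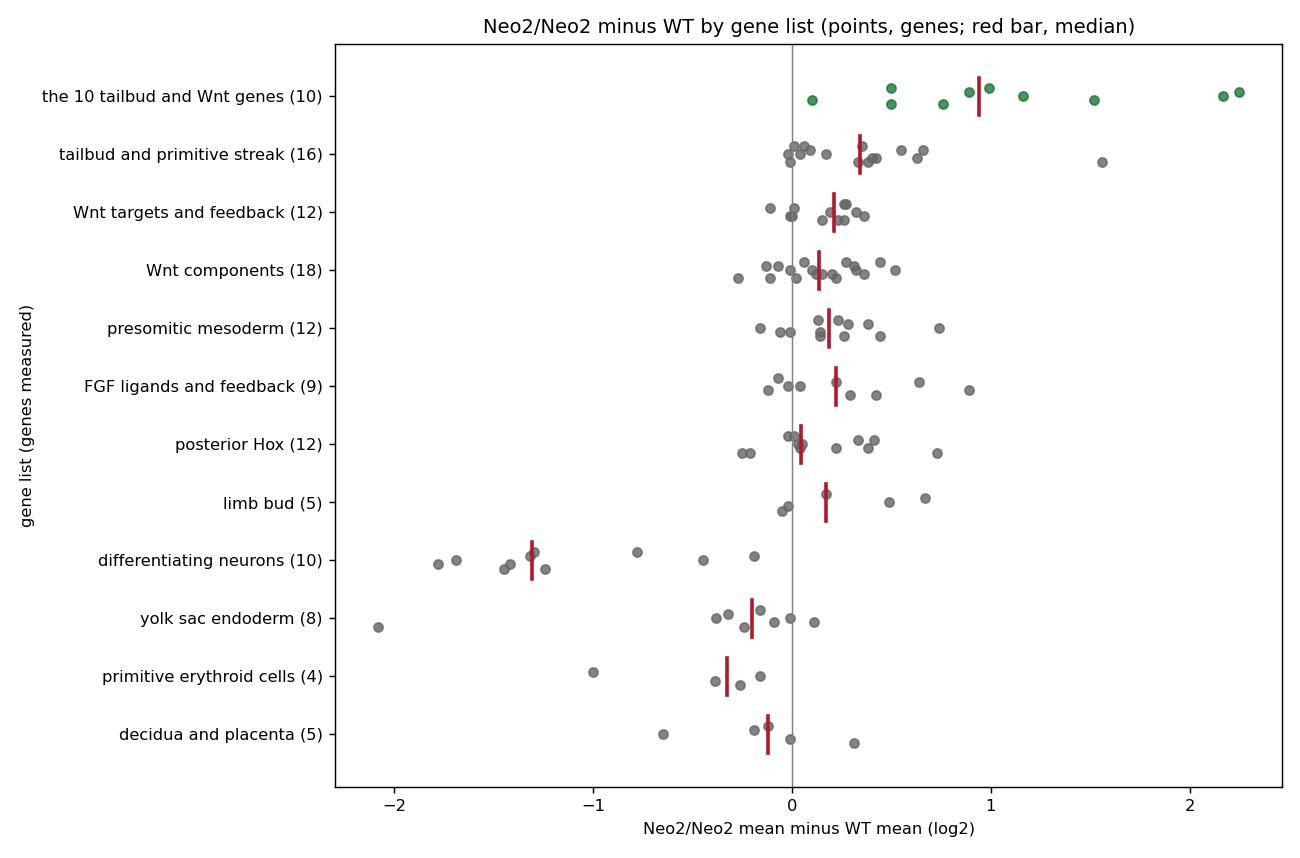
Difference of each gene between the arrays labelled Neo2/Neo2 and WT (mean of 2 minus mean of 2, log2), by gene list, with points for genes and red bars for medians. The wider pathway lists, which hold none of the 10 genes, have medians of 0.04 to 0.34 and the neuron genes one of -1.31, while the median of 0.94 of the 10 genes is on the contrast that partly chose them.

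Between the -/- embryos the wider lists other than posterior Hox differed in the same direction as the 10 genes, but they share genes. Msgn1 and Dll1 are in the Wnt target and presomitic lists, Rspo3 in the tailbud and presomitic lists, and Fgf8 and Fgf4 in the tailbud and FGF lists. Replicate 2 was above replicate 1 for 11 of the 12 Wnt targets (median 0.42), 15 of the 18 Wnt components (0.37), 10 of the 12 presomitic genes (0.46), 8 of the 9 FGF genes (0.28) and 11 of the 16 tailbud genes (0.21). It was above for 49.2% of all probe sets, with a median of 0.01 over all genes. The posterior Hox genes divided 6 and 6. Fzd7 was at 8.18 and 9.51 in the -/- embryos, against 9.15 and 9.29 in WT, and Wnt1 at 5.71 and 7.08, against 6.61 and 6.63 in WT. For Fzd7 and Wnt1, replicate 1 lay below and replicate 2 above both WT embryos, whereas for Cdx4 replicate 1 lay within the WT range. As a mean deviation, the Wnt components were at -0.47 in -/- replicate 1 and 0.01 in replicate 2, against -0.09 and -0.01 in WT. The Wnt targets were at -0.31 and 0.09, against -0.03 and -0.03. The 10 genes were at -0.34 and 0.70, against -0.44 and -0.28. The Wnt lists thus split mainly by a low replicate 1, one of the least correlated arrays. The 10 genes split by a high replicate 2.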

How the data were processed

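RNA of single whole embryos was measured on Affymetrix mouse genome arrays from 6 ug of total RNA. The authors deposited log2 values, 1 for each probe set and array. The submitters' processing notes name affy and RMA as the tools, with versions not given in the sources used here. RMA corrects background, equalises array distributions and summarises probes, so a shift shared by most genes is removed. The values were used as deposited, without a filter, and array number limits their precision.

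Of 45037 probe sets, 34945 carry 1 symbol, 932 several and 9160 none. Genes with several probe sets are represented by the brightest one. Each mutant genotype other than Neo2/Neo2 was compared with WT in limma 3.58.1 (R 4.3.3) with 9 genotype means, 9 residual and 3.63 prior degrees of freedom, two-sided, with Benjamini-Hochberg adjustment over all probe sets. The 0 against 1 allele test used 16 arrays and 13 residual degrees of freedom. The scripts were tested on simulated data. SE is limma's and SD is over embryos.

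The 10 genes, the lists and the tests were chosen with earlier results of these data known. The rule for other named genes took, per list, up to 4 genes by F-test p and up to 3 by size of the Neo2/Neo2 difference, of which some are printed, and the 5 most and 3 least alike genes. The embryos are labelled biological replicates. Replicate numbers name samples and did not pair them, as the check in the closing section gives.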

Additional observations from a re-analysis of the deposited data

Results flagged for a closer look

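Among 30 tests for an array far from the rest of its allele-number group, 4 results were found, where chance gives about 1 in 20. On the 8 arrays with 0 wild-type alleles other than those labelled Neo2/Neo2, -/- replicate 2 was the farthest for 3 genes. Cdx4 was at 5.73 there and at most 3.77 on the other 7 arrays. Nkx1-2 was at 7.19 there and at most 5.43 on the others. Cdx1 was at 5.61 there and at most 4.86 on the others. On the 6 arrays with 1 wild-type allele, Cdx1 was at 5.59 in +/- replicate 1 and at most 5.11 on the others. The first 3 of these come from 1 embryo, and +/- replicate 1 is one of the 2 arrays that correlated least with the rest over all probe sets.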

How the results depend on the processing

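The counts of called probe sets among the 15 were 0 under each of the 28 alternatives for Neo/Neo, Neo2/-, Neo2/Neo, Neo/+, Neo2/+ and the 0 against 1 allele test. Leaving out 1 array gave 0 to 6 calls for -/- against the other 3 genotypes, 0 to 2 for +/- against WT, 0 to 5 in the F-test and 0 for the other comparisons, -/- against WT among them. In the F-test the count was 2 without -/- replicate 1 (182 of all probe sets called), 5 without -/- replicate 2 (2314) and 2 without +/- replicate 2 (4381). Without +/- replicate 1 and -/- replicate 1 together the counts were 8 for -/- against the other 3 genotypes (1124 of all probe sets), 4 for -/- against WT (65) and 5 in the F-test (442). Fewer arrays leave 1 embryo in a genotype, which is then assumed to vary like the others. Of 4390 recomputed single-gene values, 4313 kept their side of the threshold, 41 passed it newly and 36 lost it, and 46 differences that were not called changed sign. Only 3 single-gene calls could be lost, and the 36 losses were in 20 of 27 alternatives for Fzd1 and 15 of 27 for Elavl3 in -/- against the other 3 genotypes, and 1 of 27 for Tbx1 in -/- against WT. In that first comparison 893 of all probe sets were called, against 0 with array weights.

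With the replicate block, 0 of the 15 were called in every comparison. The correlation of same-numbered deviations over 36 genotype pairs lay between -0.22 and 0.22 (median 0.02, 11 above 0.1), so the numbers did not pair the embryos. The median of 0.94 over the 10 genes lay between 0.82 and 0.97 when arrays were left out, was 1.00 with centred arrays and 1.01 with the mean of all probe sets. Against the mean of the 8 other genotypes it was 0.73, between 0.65 and 0.77. With 2 embryos a genotype, differences within the spread between embryos were not detectable.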

Other observations

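Among 5 limb bud markers, Pitx1 and Tbx4 differed between the -/- embryos, and Fgf10 hardly did. Pitx1, a homeobox gene of the hindlimb field, was at 7.47 ± 0.11 on the arrays labelled Neo2/Neo2 and 6.80 ± 0.39 in WT (SD, n = 2 each), and at 6.50 and 7.69 in -/-. Tbx4, a T-box gene of the hindlimb, was at 7.11 ± 0.05 on the arrays labelled Neo2/Neo2 and 6.62 ± 0.49 in WT, and at 6.41 and 7.18 in -/-. Fgf10, a ligand of both limb pairs, was at 5.37 ± 0.30 on the arrays labelled Neo2/Neo2 and 5.39 ± 0.30 in WT, and at 5.18 and 5.12 in -/-. No limb bud marker was called in the tests whose contrasts leave out the arrays labelled Neo2/Neo2, and the contrast of these arrays with WT was not tested.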
